A study of Mus musculus with 12 samples.

Results

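The 10 genes described here encode markers of macrophages and of their monocyte precursors. They are Adgre1, Csf1r, Cd68, Lyz2, Cx3cr1, Ccr2, C1qa, C1qb, C1qc and Mrc1, followed by name through 12 RNA-seq libraries of mouse small intestine. Each of the 10 names matched a single row among the 54532 genes measured. The mice were C57BL/6J of 2 genotypes, each sampled uninjured (control) and with induced necrotizing enterocolitis (NEC), a disease of preterm infants in which stretches of bowel become inflamed and die. There were 3 libraries in each of the 4 groups, flox control, flox NEC, CKO control and CKO NEC. CKO mice carried a knockout of Piezo1, a mechanically gated cation channel, that the series describes as specific to the intestinal epithelium, and flox mice had the floxed gene without its deletion. The deletion was therefore not aimed at macrophages. What drove the deletion, how old the mice were and how NEC was induced are not stated in the sources used here. Whether each library is a separate mouse is not stated either, so p-values measure only the spread between libraries, which may be technical.

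Macrophages of the gut wall take up bacteria and dying cells and depend on signalling through the receptor Csf1r. In the adult many are renewed from blood monocytes, which enter with the chemokine receptor Ccr2 and gain the fractalkine receptor Cx3cr1 as they mature, whereas macrophages of the newborn gut include cells seeded before birth. Mature cells carry the surface receptor F4/80 (Adgre1) and the mannose receptor (Mrc1), store the glycoprotein CD68 in their lysosomes, secrete lysozyme (Lyz2) and are a main source of the complement protein C1q, which is assembled from chains encoded by C1qa, C1qb and C1qc.

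The promoters of Mrc1 and Cd68 are shown because their transcripts moved in opposite directions in NEC in flox intestine. Promoters, as the bases from 250 before to 50 after a RefSeq start on GRCm38.p6, were listed for 7 of the 10 genes. The letters GAGGAA, the core to which the myeloid factor PU.1 (Spi1) binds, were searched on both strands. They occurred in 4 of the 7 promoters (57.1%), those of Mrc1 (3 matches), Cd68 (2), C1qb (1) and C1qc (1), and in 9289 of all 32851 promoters of the same length (28.3%). A match describes the letters only. The 250 bases upstream of the start are printed 5′ to 3′ on the strand of the gene with the matches in capitals, at chr2:14229164-14229413 on the plus strand for Mrc1 and chr11:69666171-69666420 on the minus strand for Cd68. The second match of Cd68 lies after the start and is not printed.
Mrc1: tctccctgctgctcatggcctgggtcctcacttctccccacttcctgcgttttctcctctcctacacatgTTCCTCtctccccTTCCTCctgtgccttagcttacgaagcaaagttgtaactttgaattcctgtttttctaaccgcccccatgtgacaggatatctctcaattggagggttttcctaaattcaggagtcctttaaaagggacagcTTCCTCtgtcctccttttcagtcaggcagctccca
Cd68: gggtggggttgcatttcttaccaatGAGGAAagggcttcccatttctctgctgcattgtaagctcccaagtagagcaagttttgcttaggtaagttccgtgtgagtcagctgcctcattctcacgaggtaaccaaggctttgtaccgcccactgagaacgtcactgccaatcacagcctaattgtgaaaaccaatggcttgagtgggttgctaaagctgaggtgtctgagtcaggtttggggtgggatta

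Lyz2 has a close copy, Lyz1, which encodes the lysozyme of Paneth cells, the antimicrobial cells of the crypt base. Their coding sequences in GENCODE M21 are each 447 bases and differ at 22, an identity of 95.1%, and the longest identical run is 118 bases. Short reads can therefore be shared between them, and how the authors' counting split such reads is not stated in the sources used. Coding bases 1 to 150, where 14 of the 22 differences fall, are printed with the differing bases in capitals. Lyz2 lies at chr10:117277331-117282321 and Lyz1 beside it at chr10:117287797-117292868, both on the minus strand.
Lyz2: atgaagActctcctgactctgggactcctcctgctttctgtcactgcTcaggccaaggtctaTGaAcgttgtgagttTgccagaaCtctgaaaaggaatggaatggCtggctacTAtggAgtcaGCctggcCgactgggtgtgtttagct
Lyz1: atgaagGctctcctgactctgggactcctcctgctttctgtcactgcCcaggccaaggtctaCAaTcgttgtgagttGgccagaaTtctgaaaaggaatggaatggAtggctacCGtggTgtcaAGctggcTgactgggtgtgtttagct

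Values are given as rescaled FPKM, that is, reads per length and sequencing depth after the deposited values had been put on a scale shared by all 12 libraries, so levels can be compared between genes per length. Depth was 13057724 to 16821130 reads per library. Scores on the leading principal component, with 59.2% of the variance, were 27.6 to 52.4 in NEC libraries and -49.2 to -36.8 in control libraries, with CKO NEC library 3 the NEC library nearest to control. Piezo1 itself, measured over the whole tissue and the whole gene, averaged 1.37 ± 0.20 in flox control and 1.29 ± 0.45 in CKO control, and 6.73 ± 0.28 in flox NEC and 4.50 ± 1.19 in CKO NEC (SD, n = 3 each). These levels do not check the labels, since cells other than the epithelium also express Piezo1 and the deleted exons are not given. In bulk tissue, fewer cells of a type and less RNA per cell cannot be told apart, and this holds for every difference below.

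The 10 transcripts did not sit at a common level. Csf1r was the most abundant in every group, at 71.9 ± 9.99 in flox control, 71.3 ± 5.91 in CKO control, 21.5 ± 2.21 in flox NEC and 18.7 ± 3.28 in CKO NEC (SD, n = 3 each). Csf1r alone made up 41.1% to 51.7% of the summed level of the 10 genes in the control libraries and 27.3% to 34.1% in the NEC libraries. Cd68, Lyz2 and the C1q chains followed at group means of 5.03 to 21.3. Cx3cr1, Mrc1 and Adgre1 had group means of 0.69 to 2.81, and Ccr2 was lowest, at 0.12 to 0.15 and 2 to 22 reads per library. The plot of levels by group shows these 3 tiers.

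**Figure D1:**
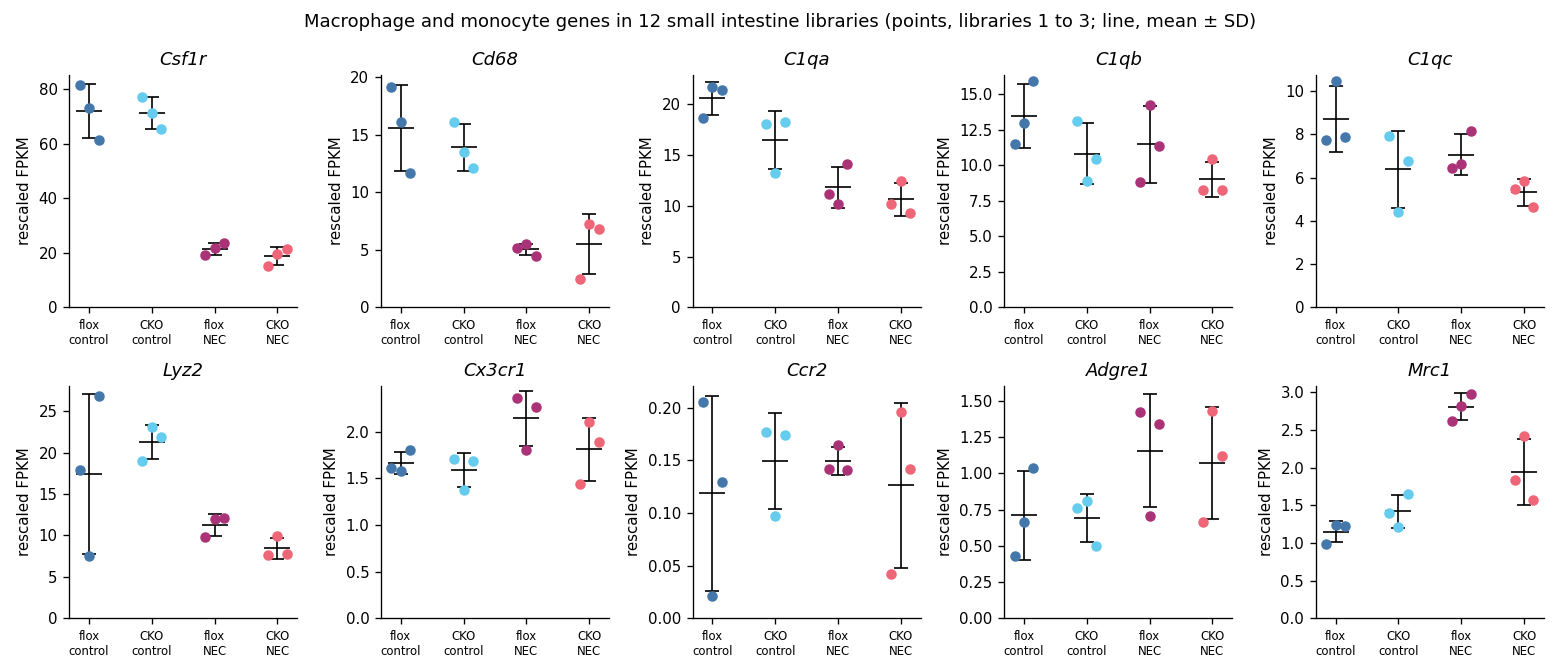
Level of each of the 10 genes (vertical axes, rescaled FPKM, each starting at 0) in the 4 groups (horizontal axes), with points for libraries 1 to 3, a line at the mean and bars of 1 SD. Csf1r and Cd68 are lower in every NEC library than in any control library, Mrc1 is higher in every flox NEC library than in any flox control library, and Ccr2 stays at or below 0.206.

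Adgre1 and Ptprc were scarce beside Csf1r, and the C1q chains lay between them and Csf1r. Adgre1 was read 20 to 77 times per library and Ptprc, which encodes the pan-leukocyte protein CD45, reached 0.231 to 2.12 rescaled FPKM. Csf1r stood 59.3 to 189 times above Adgre1 in flox control and 13.5 to 30.9 times above it in flox NEC, and 29.0 to 210 times above Ptprc over the 12 libraries. In GENCODE M21 the Csf1r gene overlaps a gene on the other strand, Hmgxb3, in 873 of its 5774 exon bases (15.1%). The deposited row of Csf1r starts at 61105572 rather than 61100598 and has a length of 4885 bases, for which the overlap was not counted. The library kit named in the labels does not mark strand. Hmgxb3 itself reached 4.31 to 9.60 rescaled FPKM, 1.83 to 16.9 times below Csf1r, and it was higher in NEC, by 0.68 log2 in flox (limma, adjusted p = 0.00225) and by a difference that did not pass in CKO (0.11, adjusted p = 0.574). The part of cell types other than macrophages in the level of Csf1r was not tested.

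Comparing NEC with control asked how the macrophage transcripts stood in the injured bowel. In flox intestine 4 of the 9 genes tested passed the limma test at an adjusted p of 0.05: Csf1r, Cd68 and C1qa fell and Mrc1 rose. Over all 13876 genes tested in that comparison 56.2% were called, 28.6% higher and 27.6% lower, so 4 of 9 is not a larger share than the background. The groups did not overlap for 5 of the 9, 2 of them higher and 3 lower in NEC, against 64.7% of all genes (33.3% higher and 31.5% lower). In CKO intestine 4 of 8 tested genes fell, Csf1r, Cd68, Lyz2 and C1qa, and none rose, against 37.5% called among 13492 genes, 17.3% higher and 20.2% lower. The CKO groups did not overlap for those 4 genes, and for 53.5% of all genes (25.0% higher and 28.5% lower). The median log2 difference of the genes tested was -0.26 in flox and -0.41 in CKO, against 0.01 and -0.02 over all genes tested. Ccr2 passed the filter on low values, which asked for an FPKM of 1 or more in 3 or more libraries, in neither genotype, and Adgre1 only in flox.

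Csf1r encodes the receptor for the growth factors Csf1 and Il34, on which macrophage survival depends, and lies on chromosome 18 at 61105572 to 61132149, plus strand, as deposited. It read 81.3, 72.9 and 61.4 in flox control libraries 1 to 3 and 19.2, 21.8 and 23.6 in flox NEC libraries 1 to 3. CKO control libraries stood at 77.2, 71.3 and 65.4 and CKO NEC libraries at 15.1, 19.6 and 21.5. The lowest control library was thus above the highest NEC library by a wide margin in both genotypes. On the scale of log2 of rescaled FPKM plus 1 the difference was -1.69 ± 0.14 (SE) in flox (limma, adjusted p = 1.43e-04) and -1.89 ± 0.16 in CKO (adjusted p = 0.00125).

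Cd68 encodes a glycoprotein of lysosomal and endosomal membranes (chr11:69664213-69666153, minus strand). Its levels were 19.1, 16.1 and 11.7 in flox control and 5.14, 5.47 and 4.48 in flox NEC. In CKO they were 16.1, 13.5 and 12.1 in control and 2.46, 7.24 and 6.79 in NEC, where library 1 was the lowest of all 12. The groups did not overlap in either genotype. Cd68 fell by 1.44 ± 0.18 log2 (SE) in flox (limma, adjusted p = 5.51e-04) and by 1.29 ± 0.33 in CKO (adjusted p = 0.0209). In CKO it did not pass when control library 1 (adjusted p = 0.0612) or 2 (0.0516) was left out, or with no filter on low values (0.0594), in a range of 0.00461 to 0.0612 over 14 alternatives.

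The ratio of Csf1r to Cd68 was 4.26 to 5.42 in the 6 control libraries and 2.71 to 6.13 in the 6 NEC libraries. Both ends of the NEC range came from CKO NEC. The deviations of Csf1r and Cd68 from the group means, which leave out the differences between groups, had a Pearson r of 0.822 over the 12 libraries. Neither moved with the C1q chains in that sense, with r from -0.0222 to 0.0973. These coefficients are descriptions over libraries that share depth and tissue make-up, and have no p.

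The C1q genes lie side by side on chromosome 4, minus strand, C1qb at 136880129 to 136886187, C1qc at 136889804 to 136893065 and C1qa at 136895917 to 136898803. Their products are chains of a single protein that starts the classical complement pathway. C1qa read 18.7, 21.7 and 21.3 in flox control, 18.1, 13.2 and 18.2 in CKO control, 11.2, 10.2 and 14.1 in flox NEC and 10.1, 12.5 and 9.32 in CKO NEC. Each NEC group lay wholly below the control group of its genotype. C1qa fell by 0.76 ± 0.14 log2 (SE) in flox (limma, adjusted p = 0.00294) and by 0.58 ± 0.17 in CKO (adjusted p = 0.0329).

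The CKO call of C1qa was the least firm of the calls among the 10 genes. Its adjusted p ranged from 0.0124 to 0.0953 over 14 alternatives. It was lost with no filter on low values (0.0689), quantile normalization (0.0725), limma-voom on reads (0.0598), the replicate number as a block (0.0726) and deposited values (0.0748). It was lost too without CKO control library 1 (0.0953) or 3 (0.0860), or without CKO NEC library 1 (0.0900) or 3 (0.0839).

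C1qb and C1qc did not pass in either genotype. C1qb averaged 13.5 ± 2.27 in flox control, 11.5 ± 2.71 in flox NEC, 10.8 ± 2.13 in CKO control and 9.01 ± 1.26 in CKO NEC (SD, n = 3 each), with log2 differences of -0.23 in both genotypes (limma, adjusted p = 0.332 in flox and 0.304 in CKO). C1qc averaged 8.70 ± 1.52, 7.07 ± 0.94, 6.38 ± 1.79 and 5.32 ± 0.63 in the same order, with log2 differences of -0.26 (adjusted p = 0.165) and -0.20 (0.458). The ratio of C1qa to C1qc was 2.07 to 2.98 in the control libraries, 1.54 to 1.73 in flox NEC and 1.86 to 2.12 in CKO NEC. The ratio of C1qb to C1qc overlapped between control (1.24 to 2.02) and NEC (1.37 to 2.16). A ratio shows unequal change and not which chain moved, and the difference between the chains was not tested.

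**Figure D2:**
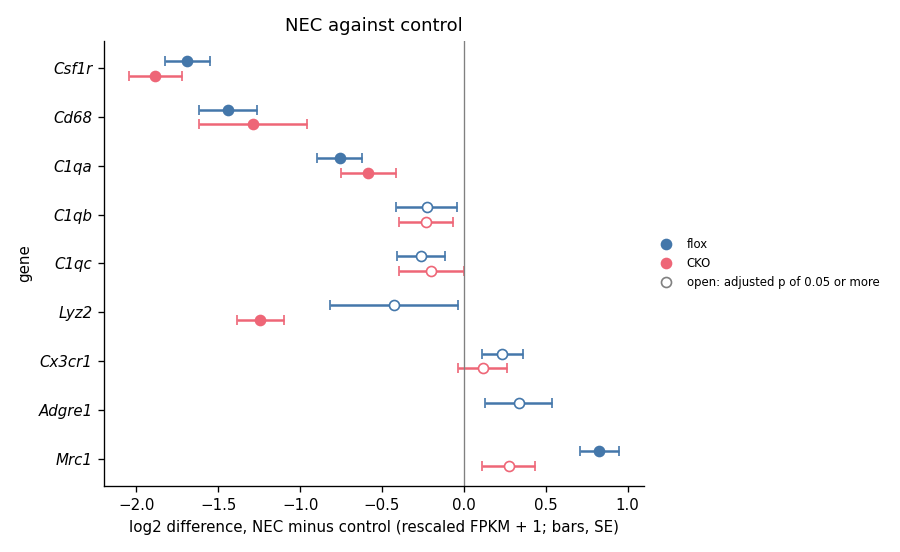
Log2 difference between NEC and control (horizontal axis, NEC minus control on log2 of rescaled FPKM plus 1, with bars of 1 SE) for the 9 genes tested (vertical axis) in flox and CKO. Filled points passed an adjusted p of 0.05: Csf1r, Cd68 and C1qa lie to the left in both genotypes, Lyz2 is filled only for CKO, and Mrc1 only for flox. Whether the genotypes differ is tested by the interaction given in the text.

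Lyz2 encodes the lysozyme of macrophages and other myeloid cells. It read 17.9, 7.48 and 26.8 in flox control, 19.0, 23.1 and 21.9 in CKO control, 9.77, 12.04 and 12.1 in flox NEC and 7.66, 9.93 and 7.78 in CKO NEC. Flox control library 2 stood below all 3 flox NEC libraries, whereas the other 5 control libraries stood above every NEC library. Lyz2 fell in CKO (-1.24 ± 0.14 log2, SE, limma, adjusted p = 0.00220). In flox it did not pass (-0.43 ± 0.39, adjusted p = 0.377), and without flox control library 2 it passed at -0.91 (adjusted p = 0.00931, in a range of 0.00931 to 0.906 over 14 alternatives).

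Flox control library 2 also had the lowest level of Ptprc and of the lymphocyte markers among the control libraries, but not of the neutrophil, dendritic cell or mast cell and eosinophil markers. Ptprc read 0.347 there and 1.05 to 2.12 in the other 5 control libraries, and the summed level of 14 lymphocyte markers was 8.84 against 20.4 to 47.7. In NEC those markers summed to 1.94 to 5.68 in flox and 1.22 to 2.41 in CKO. Of the 3 lymphocyte markers tested in each genotype all 3 fell, among them the B cell receptor component Cd79a (-2.28 log2 in flox, limma, adjusted p = 0.0257, and -2.70 in CKO, adjusted p = 9.01e-04). Markers this low in NEC pass the filter on low values mainly through control libraries, which favours calls of a fall. Ptprc passed that filter in CKO only through its control libraries, as it was at most 0.503 in CKO NEC. Only a fall could thus be called there (-0.82 ± 0.18, SE, limma, adjusted p = 0.0130), and Ptprc was not tested in flox. Over the 12 libraries the ratio of Lyz2 to Ptprc spanned 12.7 to 33.2, against 29.0 to 210 for Csf1r to Ptprc and 7.42 to 62.5 for C1qa to Ptprc. The part of lymphoid tissue in the level of Lyz2 was not tested.

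Lyz1, the Paneth cell copy, moved the opposite way. It read 0.386, 0.734 and 13.5 in flox control and 0.223, 0.0578 and 6.23 in CKO control, with library 3 high in both. In flox NEC it read 32.8, 32.5 and 31.9 and in CKO NEC 38.9, 10.8 and 6.32. Lyz1 rose by 3.36 ± 0.80 log2 (SE) in flox (limma, adjusted p = 0.00934) and by 2.84 ± 0.86 in CKO (adjusted p = 0.0376). The ratio of Lyz2 to Lyz1 went from 1.99 to 399 in the control libraries to 0.197 to 1.23 in the NEC libraries. In the same direction the summed level of 11 Paneth cell markers, Lyz1 among them, was 10.2 to 171 in control and 145 to 415 in NEC.

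**Figure D3:**
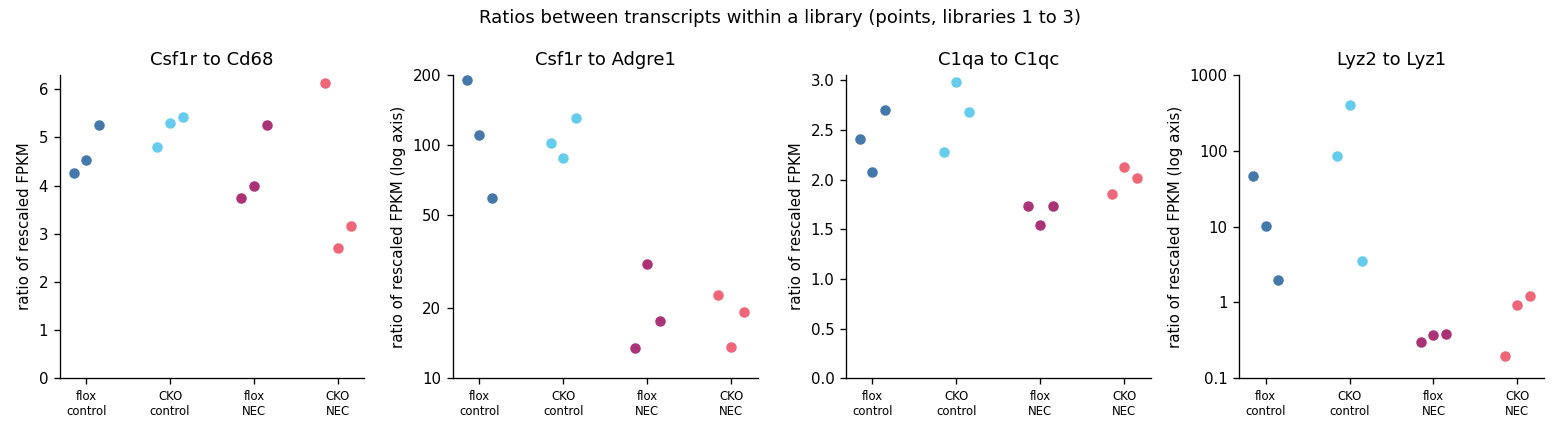
Ratio of the levels of 2 transcripts within a library (vertical axes, rescaled FPKM over rescaled FPKM, logarithmic for Csf1r to Adgre1 and for Lyz2 to Lyz1) in the 4 groups, with points for libraries 1 to 3. Csf1r to Cd68 stays between 2.71 and 6.13, while Csf1r to Adgre1 and Lyz2 to Lyz1 are lower in every NEC library than in any control library.

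Mrc1, which encodes the mannose receptor CD206, a scavenger of glycoproteins on tissue-resident macrophages and on some endothelia, was the member that rose. It lies at chr2:14229392-14332057 on the plus strand. It read 0.983, 1.23 and 1.23 in flox control and 2.62, 2.82 and 2.98 in flox NEC, so every NEC library was above every control library. In CKO it read 1.39, 1.21 and 1.65 in control and 1.83, 2.42 and 1.56 in NEC, and the groups overlapped. Mrc1 rose by 0.83 ± 0.12 log2 in flox (SE, limma, adjusted p = 0.00111), and its difference in CKO was 0.27 ± 0.16 (adjusted p = 0.217). The interaction, which tests whether the NEC difference depends on genotype, was -0.56 ± 0.19 for Mrc1 and did not pass (unadjusted p = 0.0126, adjusted p = 0.129).

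Endothelial markers were read beside Mrc1. Of 10 blood endothelial markers tested 5 rose in flox, where 3 of the 10 differences were below 0, and 7 rose in CKO, where Mrc1 did not pass. Of all genes tested 28.6% were called higher in flox and 17.3% in CKO. Of 6 lymphatic markers 4 rose in each genotype and 1 fell in flox, and among those that rose was Flt4, a receptor of lymphatic vessels (1.40 log2 in flox, limma, adjusted p = 2.51e-04, and 1.26 in CKO, adjusted p = 0.00587). The summed level of the blood markers was 53.8 to 108 in control and 97.8 to 133 in NEC, ranges that overlap. Lyve1 and Stab1, receptors of lymphatic or sinusoidal endothelium and of some macrophages, also rose (given with the other resident genes below). The part of the endothelium in the level of Mrc1 was not tested.

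Adgre1, Cx3cr1 and Ccr2 showed no call. Adgre1 (chr17:57358691-57483527, plus strand) averaged 0.71 ± 0.31 in flox control, 0.69 ± 0.17 in CKO control, 1.16 ± 0.39 in flox NEC and 1.07 ± 0.39 in CKO NEC (SD, n = 3 each), with a log2 difference of 0.33 in flox (limma, adjusted p = 0.203). Cx3cr1 (chr9:119901616-120069879, minus strand) averaged 1.66 ± 0.12, 1.59 ± 0.18, 2.14 ± 0.30 and 1.81 ± 0.34 in the same order. Its flox NEC libraries stood just above the flox control libraries, at 1.80 to 2.36 against 1.58 to 1.80, and the log2 difference of 0.24 did not pass (adjusted p = 0.152). Ccr2 (chr9:124101950-124113557, plus strand) was read 20, 2 and 12 times in flox control, 17, 9 and 16 in CKO control, 14, 17 and 14 in flox NEC and 5, 22 and 14 in CKO NEC. A change of Ccr2 was not detectable at these counts.

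In order of group means, neighbours were parted in few places. Csf1r and Cd68 had both control groups above both NEC groups with no overlap, and no parting between genotypes. C1qa was parted only between flox control and CKO control, and Mrc1 only between flox NEC and CKO NEC. For Adgre1, Cx3cr1, Ccr2, Lyz2, C1qb and C1qc no neighbouring groups in the order were free of overlap.

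CKO was compared with flox within each condition, the comparison at the centre of the study's title, on deposited FPKM plus 1. In NEC none of the 9 genes tested was called, as none of 13673 genes was in all (0%). By limma 599 of those genes had an unadjusted p under 0.05, and limma-voom on the reads called none as well. All 9 differences were below 0, with a median of -0.22 against 0.01 over all genes. Of all genes tested 52.5% had a difference above 0. The 9 genes were read in the same libraries, so their signs are not independent. Cd68 was below 0 by less than 0.01 and turned positive with other scalings (0.01 with quantile normalization and 0.01 with rescaled values). Its mean was the higher in CKO, at 5.76 deposited FPKM against 5.32 in flox.

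Lyz2 (-0.40 ± 0.14 log2, SE), Mrc1 (-0.40 ± 0.14) and C1qc (-0.37 ± 0.13) were the furthest from 0 in NEC. Their unadjusted p-values were 0.0230, 0.0261 and 0.0250 by limma, and the adjusted p was 0.840 for each. For Mrc1 and C1qc the 3 CKO NEC libraries stood below the 3 flox NEC libraries, as did 6.14% of all genes tested, and for no gene of the 9 did they stand above, as did 4.83% (11.0% in either direction). C1qb differed by -0.32, Csf1r by -0.22, Cx3cr1 by -0.18, C1qa by -0.15 and Adgre1 by -0.07, with SEs of 0.15 to 0.22.

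Without injury none of the 8 genes tested was called, against a single gene of 13300 (0.00752%), although 3849 of those genes had an unadjusted p under 0.05. The C1q chains were lower in CKO by similar amounts, C1qc by -0.41 ± 0.21 log2 (SE), C1qa by -0.31 ± 0.15 and C1qb by -0.30 ± 0.18, with adjusted p-values of 0.219 to 0.301 by limma. Only for C1qa, of the 8, did the groups not overlap, against 34.5% of all genes tested (21.8% higher and 12.7% lower in CKO). Csf1r differed by -0.01 ± 0.14, with 67.7 ± 5.68 deposited FPKM in CKO and 68.2 ± 9.48 in flox (SD, n = 3 each). Lyz2 differed by 0.43 ± 0.39, and by -0.05 without flox control library 2.

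**Figure D4:**
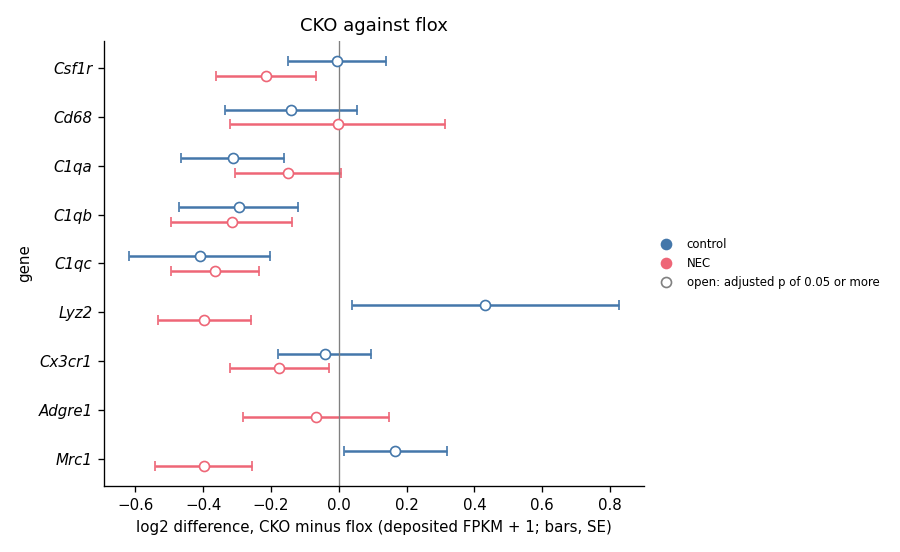
Log2 difference between CKO and flox (horizontal axis, CKO minus flox on log2 of deposited FPKM plus 1, with bars of 1 SE) for 9 genes (vertical axis) in control and in NEC, with open points where the adjusted p was 0.05 or more. All points are open, the 3 C1q chains lie left of 0 in both conditions, and the comparisons share no libraries.

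No gene of the 9 tested passed the interaction of genotype and NEC, against 181 of 14808 genes (1.22%). Beside Mrc1, Lyz2 differed most, at -0.83 ± 0.46 log2 (SE, limma, adjusted p = 0.335). The interaction of Csf1r was -0.21 ± 0.21 (adjusted p = 0.616), that of Cd68 0.14 ± 0.41 and that of C1qa 0.16 ± 0.23. Calls in flox and not in CKO, or the reverse, are therefore not shown to differ between the genotypes for any of the 10 genes.

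Within groups the 10 genes did not vary as a single block. Of the 45 pairs, 10 had an r above 0.5 between their deviations from group means and 9 an r below 0, with a median of 0.219. C1qa went with C1qc (0.839) and with Mrc1 (0.805), Adgre1 with Cx3cr1 (0.739) and Csf1r with Cd68 (0.822), whereas Lyz2 and C1qc had the lowest r (-0.418). The genes are read in the same 12 libraries, with 3 in each group, so these values only describe them.

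**Figure D5:**
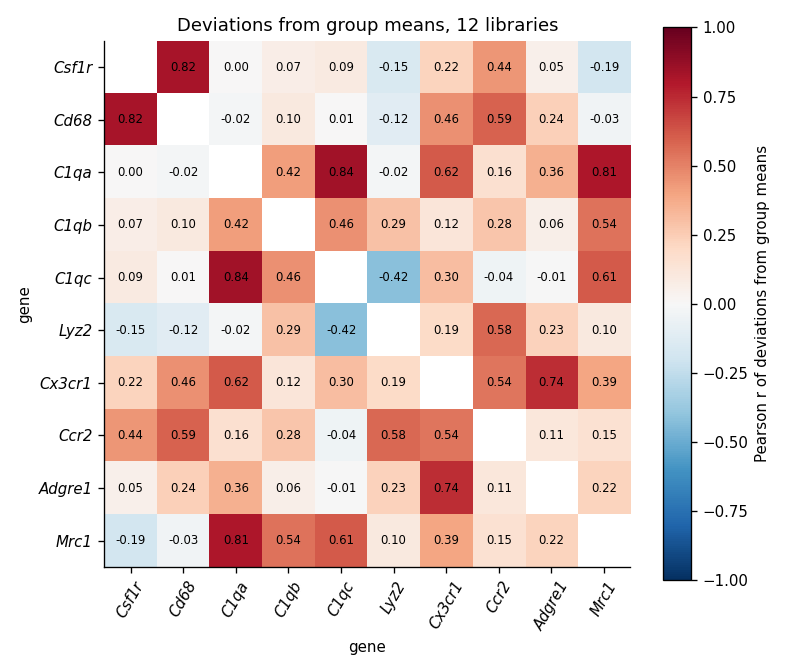
Pearson r between the deviations of 2 genes from their group means (log2 of rescaled FPKM plus 1, 12 libraries), with genes on both axes and colour from -1 to 1. Csf1r and Cd68 (0.82) and C1qa, C1qc and Mrc1 (0.61 to 0.84) stand out as separate blocks.

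Among 7769 genes with a mean of at least 5 rescaled FPKM, those closest to the mean deviation of 9 of the 10 genes were Angptl8 (r = 0.910), a regulator of lipoprotein lipase, the interferon regulator Irf7 (0.898), the calcium pump gene Atp2a3 (0.891) and the interferon-induced Oas1a (0.884). The rest of the first 10 were Gm44985, Parp10, Unc93b1, Tmem129, Samd1 and Hoxb5, down to an r of 0.850. For Lyz2 alone the first 10 were Arhgef18 (0.939), Eif5b (0.929), Afdn (0.920), the immunoglobulin light chain transcript Igkc (0.914), Fam13b, Mars, Asns, Gm3375, the leukocyte antigen Cd52 (0.899) and H2-Aa (0.884). The lists of other members held other genes. That of Csf1r began with Tsc2 (0.94), Gpr151 (0.93) and Slc34a3 (0.93), and that of Cd68 with Eif2ak3 (0.94), Castor2 (0.93) and Ncor1 (0.91). That of C1qa began with Zfp503 (0.88) and that of Mrc1 with Qsox1 (0.95).

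Of 30 further genes of resident macrophages 17 were tested in flox, of which 4 rose and 10 fell in NEC, and 15 in CKO, of which 3 rose and 9 fell. For this list and those after it, the shares called over all genes tested were 28.6% higher and 27.6% lower in flox. In CKO they were 17.3% higher and 20.2% lower. A gene that passed the filter on low values mainly through libraries of 1 condition is favoured for a call as higher in that condition. The counts in these lists include such genes. The median log2 difference of the resident genes was -0.77 in flox and -0.88 in CKO. Those that rose in both were Lyve1, a hyaluronan receptor (1.69 log2 in flox, limma, adjusted p = 1.43e-04, and 1.78 in CKO, 0.00193), the scavenger receptor Stab1 (0.72 and 1.01) and the transporter Slco2b1 (0.59 and 0.71). The haemoglobin scavenger receptor Cd163 rose in flox (1.02, limma, adjusted p = 0.00106). It averaged 1.74 deposited FPKM in flox NEC and less in flox control. Cd163 thus passed the filter mainly through NEC libraries, which favours a call of a rise. Folr2, a folate receptor of resident macrophages, fell by 2.05 log2 in flox and by 1.28 in CKO (limma, adjusted p = 2.70e-04 and 0.00445). Aif1, Hmox1 and Mertk also fell in both genotypes. Aif1 did not pass the filter on low values among the NEC libraries alone. It was thus tested mainly through control libraries, which favours a call of a fall.

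That list was dominated by a few transcripts that epithelium also makes. The lysosomal proteases Lgmn and Ctss, the growth factor Gas6 and the endocytic adaptor Dab2 gave 81.6% to 97.9% of its summed level over the 12 libraries. Lgmn averaged 2200 ± 496 rescaled FPKM in flox control, 4308 ± 524 in CKO control, 472 ± 55.0 in flox NEC and 701 ± 450 in CKO NEC (SD, n = 3 each). Without those 4 genes the list summed to 107 to 131 in control and 70.2 to 83.0 in NEC. In CKO NEC library 1, where Cd68 was lowest, the list summed to 382 with those 4 genes, compared with 1136 in library 2 and 1384 in library 3 of that group. At the other end, Vsig4 and Cd209d were read 0 times in all 3 libraries of 3 of the groups.

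Of 14 myeloid transcription factors tested in flox 8 fell and 2 rose in NEC, against 27.6% and 28.6% of all genes tested. Of 13 in CKO 6 fell and 1 rose, against 20.2% and 17.3%. The medians were -0.62 and -0.45 log2. Some of these transcripts stood far above Spi1, such as Cebpa at 43.5 deposited FPKM in flox NEC and 52.5 in CKO NEC. The part of other cell types in their levels was not tested. Tfec, a myeloid relative of the factor Mitf, fell by 2.14 log2 in flox (limma, adjusted p = 6.16e-05) and by 1.82 in CKO (0.00413). Nr1h3, Cebpb, Cebpa and Maf also fell in both genotypes, and Zeb2 rose in both. Spi1, which encodes PU.1 itself, stood at group means of 1.15 to 1.98 and did not pass (-0.30 in flox, adjusted p = 0.211, and -0.15 in CKO, 0.557).

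Among the growth factors and chemokines that act on these cells, Csf1 did not pass in either genotype, at -0.29 log2 in flox and 0.19 in CKO (limma, adjusted p = 0.127 and 0.440), and Il34 fell in CKO (-0.55, 0.0173). Cx3cl1, the ligand of Cx3cr1, fell by 0.66 log2 in flox (0.00157) and by 0.93 in CKO (0.0126). The monocyte chemokines Ccl2 and Ccl7, which attract cells through Ccr2, had group means of 0.12 to 0.32 and were not tested. In all 6 of 11 genes of this list were tested in each genotype, with 1 rising and 2 falling.

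Of 22 further monocyte genes 6 were tested in flox, of which 3 rose and 2 fell, and 7 in CKO, of which 2 rose and 1 fell. The proteoglycan Vcan rose in both (0.86 and 0.85 log2, limma, adjusted p = 0.00328 and 0.0116). Ace, a peptidase that is also abundant in enterocytes, fell in both (-1.22 and -2.32, adjusted p = 0.00513 and 0.00242). Ly6c2, the marker of blood monocytes, had group means of 0.01 to 0.16 and was not tested, and Clec4e and Ms4a3 were read 0 times in 3 or more groups.

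Of 32 myeloid signalling and adhesion genes 21 were tested in flox, with 1 rising and 8 falling, and 20 in CKO, with 1 rising and 7 falling. The fungal pattern receptor Clec7a rose in both (1.11 and 0.83 log2, limma, adjusted p = 0.00436 and 0.0122). The adaptors Tyrobp and Fcer1g, which carry signals of myeloid receptors, fell in flox (-0.95 and -0.97, adjusted p = 0.00238 and 7.49e-04). They did not pass in CKO (0.01 and -0.24, 0.970 and 0.290). Their interactions did not pass (0.94 and 0.72, limma, adjusted p = 0.0636 and 0.0973), so a difference between the genotypes is not shown. Cyba, a subunit of the phagocyte oxidase that other cells share, fell in both (-1.36 and -0.90).

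Of 25 products of activated macrophages most were too low to be tested. Il1b, Tnf, Il6, Il10 and Il12b had group means of at most 0.32 and were not tested. Of 7 genes tested in flox Nos2, the inducible nitric oxide synthase (1.09 log2, limma, adjusted p = 0.00193), and Tgfbi (0.94, 4.15e-04) rose, and of 6 in CKO Nos2 (0.95, 0.00645), Tgfbi (0.79, 0.0174), Ccl17 (0.86, 0.0233) and Igf1 (0.63, 0.0495) did. None fell in either genotype. Nos2 averaged 2.07 deposited FPKM in flox NEC and 1.47 in CKO NEC, and less in control. It thus passed the filter on low values mainly through NEC libraries, which favours a call of a rise.

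Of 15 partners and receptors of C1q 9 were tested in each genotype, with 1 rising and 2 falling. The complement protease component C2, which acts just after C1, fell by 2.40 log2 in flox and by 2.24 in CKO (limma, adjusted p = 6.98e-05 and 0.00426). The C1 proteases C1ra and C1s1 and the inhibitor Serping1 did not pass in either genotype. Cd93, a receptor of endothelium and monocytes, rose by 0.82 and 0.72 (adjusted p = 0.00354 and 0.0132).

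Markers of the other cells that share some of these transcripts were also read. Neutrophil markers summed to 7.36 to 18.4 over the 12 libraries, and Ly6g was read 0 times in all libraries of 3 groups. Of 15 neutrophil markers 4 were tested in flox, where Retnlg and Mmp9 rose and Ltf and Camp fell. In CKO 2 were tested, of which Ltf fell. Retnlg was read 0 times in all control libraries, so only a rise of it could be called. Camp did not pass the filter on low values among the NEC libraries alone, which favours a call of a fall. Mast cell and eosinophil markers summed to 0.363 to 1.91, and none was tested. Of 13 dendritic cell markers only Bst2, which interferon induces in many cells, was tested, and it fell by 3.10 log2 in flox (limma, adjusted p = 4.57e-05) and by 2.31 in CKO (0.00548). The 10 fibroblast markers summed to 82.0 to 342 in control and 329 to 666 in NEC, of which 8 rose in each genotype. None of the genes in any of these lists passed in either comparison of genotypes or in the interaction, and the part of these cells in the levels of the 10 genes was not tested.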

How the data were processed

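Total RNA of small intestine was isolated with Trizol and, per the labels' protocols, libraries were prepared by NEBNext Ultra II RNA chemistry, which does not mark strand. The aligner, counter and genome build are not stated in the sources used. Coordinates of 53499 of 54409 matched genes (98.3%) equal those of GENCODE M21, on GRCm38, and coordinates are printed as deposited. The authors deposited FPKM values with gene lengths in 2 tables, control and NEC, of 6 libraries and 54532 genes each. FPKM times length was a whole multiple of a fixed step in each library for 100% of values (tolerance 0.05), which gave back the reads. The deposited NEC values sat 0.15 log2 above a scaling shared by both tables, so levels and NEC comparisons used reads per length over median-of-ratios factors of all 12 libraries (rescaled FPKM). No replicate pair held identical values.

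Genotype comparisons and their interaction used deposited FPKM. All tests were limma 3.58.1 (R 4.3.3) on log2 of FPKM plus 1 with a variance trend, over genes with an FPKM of 1 or more in 3 or more of the fitted libraries, adjusted by Benjamini-Hochberg over all genes at 0.05. Fold changes on that scale understate changes of low genes. The code was tested on simulated data. Alternatives were a pseudocount of 0.1, no filter, a mean FPKM of 5, quantile normalization, limma-voom on the reads, the replicate number as a block, a joint fit of the 4 groups, the other scaling and leaving out each library. Other work used Python 3.11.15, numpy 2.4.6, pandas 2.3.3 and matplotlib 3.10.9.

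The 10 genes and the other lists were chosen with earlier results of these data known. Named were the 10 genes, Lyz1, Ptprc and Piezo1, up to 4 genes per list and direction with the smallest adjusted p, up to 2 of a list with none, and the 10 genes most like the mean of the members. Other genes named, such as Hmgxb3, Spi1, Csf1, Ccl2, Il1b and C1ra, were chosen after their values were seen or for their role. Counts past a threshold in other lists describe them, and the shares over all genes printed beside them are not a test.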

Additional observations from a re-analysis of the deposited data

How the results depend on the processing

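For the single genes of the 10, the alternatives kept direction and side of the threshold for 116 values of CKO against flox in NEC (7 changed sign), 103 of the same comparison in control (7 changed sign), 150 of the interaction (18 changed sign), 118 of NEC against control in flox (1 gained a call) and 98 in CKO (12 lost one). None of the 10 genes was called for genotype or interaction under any alternative run. With quantile normalization the values that changed sign were Cd68 in NEC (0.0104), Cx3cr1 in control (0.0808) and the interaction of C1qb (0.0304), with rescaled FPKM Cd68 in NEC (0.0101), and with limma-voom the interaction of C1qb (0.0163). Leaving out 1 library gave, in NEC, -0.233 to 0.0839 for Adgre1 and -0.232 to 0.401 for Cd68. In control it gave -0.112 to 0.0874 for Csf1r, -0.323 to 0.00876 for Cd68, -0.0453 to 0.810 for Lyz2 and -0.0743 to 0.0159 for Cx3cr1. For the interaction it gave -0.228 to 0.0893 for Adgre1, -0.0906 to 0.543 for Cd68, -0.178 to 0.136 for C1qb and -0.160 to 0.198 for C1qc.

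The 4 calls in CKO NEC became 2 with no filter and 2 to 4 with a library left out (2 without CKO control library 1), and the 4 in flox NEC 4 to 5. Over all genes, the single call between genotypes in control became 0 with no filter, 760 with a mean FPKM of at least 5, 2 with limma-voom, 2051 with all 4 groups in 1 fit and 0 to 830 with a library left out (830 without flox control library 3). In NEC it was 0 to 1 with a library left out. The 181 interaction calls became 41 with no filter, 417 with a mean of at least 5, 279 with quantile normalization, 114 with rescaled FPKM and 0 to 646 with a library left out (646 without flox control library 3). The 7803 calls for NEC in flox became 4945, and the 5066 in CKO 3294, with a mean of at least 5, which tests fewer genes, and the latter 3038 to 4428 with a library left out. For the other changes the cause was not tested. With deposited FPKM 4906 genes were higher and 3123 lower in flox NEC, against 3969 and 3834, and 3140 and 2062 in CKO NEC, against 2339 and 2727, since the median of all genes then moved from 0.01 to 0.14 and from -0.02 to 0.10 log2.

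With the replicate number as a block, 903 genes were called between genotypes in control, and C1qa lost its call in CKO NEC (limma, adjusted p = 0.0726). Libraries with the same number deviated together with r from -0.120 to 0.355, not above 0.1 for every pair of any comparison. The highest r was between library 3 of flox control and library 3 of CKO control. What the number stands for is not stated, and whether libraries of the same number share a batch was not tested. Depth limits Ccr2 most, with 2 to 22 reads.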
